A study of Mus musculus with 12 samples.

Results

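The collagen genes were taken as every symbol of the count table made of Col, a number, a small a and a number (Col1a1, Col27a1 and so on). This rule uses names only, and it found 44 of the 24527 symbols. Their messenger RNA was measured by RNA sequencing in whole liver of 12 mice aged 39 weeks, 3 in each of 4 groups. All 12 mice were offspring of CF1 females and B6SJL males. The naturally conceived groups came from mating, and the IVF groups came from in vitro fertilisation by a Jackson Laboratory protocol, with females and males kept apart in both. Per the labels, RNA was taken with TRIzol and phenol-chloroform from a piece of snap-frozen liver, and libraries were made from polyadenylated RNA with a KAPA kit and read on an Illumina NextSeq. The labels call the 3 libraries of a group separate samples and do not give litters, and the titles of IVF female replicate 1 and IVF male replicate 2 share a number whose meaning is not stated. All libraries were treated as independent, so the p-values measure the spread between these samples. The comparisons ask how collagen expression in the liver differed between conception by IVF and by mating, and between males and females.

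Collagens are the main fibrous proteins of the extracellular matrix. Each molecule is a helix wound from collagen chains, and each gene encodes a chain. Fibrillar collagens (types I, II, III, V, XI, XXIV and XXVII) form fibrils, and types I and III among them are the classical collagens of liver scarring. Collagen IV forms the sheets of basement membranes, and collagen VI forms beaded filaments around cells. The fibril-associated collagens sit on the surface of fibrils, the multiplexins XV and XVIII lie in basement membranes and release endostatin-like fragments, and a further group spans the cell membrane. In liver, hepatic stellate cells and portal fibroblasts are the best known producers of fibrillar collagen, while hepatocytes are a known source of Col18a1. In whole liver, fewer cells of a type and less RNA per cell cannot be told apart.

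RefSeq promoter sequences of GRCm38.p6 were found for 35 of the 44 collagen genes. Those of Col27a1 and Col5a3 are shown because these 2 genes were higher in males. Col4a2 was also higher in males, and its window (73.6% G and C, 26 CpG pairs) is not printed. The sequence of Col3a1 is shown because it is the most abundant classical fibrillar collagen in these livers. Each line gives the 250 bases before the annotated start, 5′ to 3′ on the gene's strand, and capitals mark matches on either strand to the CCAAT box, the GC box GGGCGG and the TATA box TATAAA.
Col27a1, chr4:63215162-63215411, plus strand: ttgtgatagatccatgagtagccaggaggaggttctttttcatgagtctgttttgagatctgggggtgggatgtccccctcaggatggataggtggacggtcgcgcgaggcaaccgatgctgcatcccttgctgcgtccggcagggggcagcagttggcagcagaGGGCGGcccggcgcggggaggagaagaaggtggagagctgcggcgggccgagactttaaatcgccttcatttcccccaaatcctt
Col5a3, chr9:20815068-20815317, minus strand: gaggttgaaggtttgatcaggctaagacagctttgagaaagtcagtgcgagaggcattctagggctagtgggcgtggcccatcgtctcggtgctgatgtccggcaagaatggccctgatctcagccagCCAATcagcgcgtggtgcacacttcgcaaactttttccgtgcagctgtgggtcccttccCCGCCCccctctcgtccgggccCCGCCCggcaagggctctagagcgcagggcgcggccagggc
Col3a1, chr1:45311288-45311537, plus strand: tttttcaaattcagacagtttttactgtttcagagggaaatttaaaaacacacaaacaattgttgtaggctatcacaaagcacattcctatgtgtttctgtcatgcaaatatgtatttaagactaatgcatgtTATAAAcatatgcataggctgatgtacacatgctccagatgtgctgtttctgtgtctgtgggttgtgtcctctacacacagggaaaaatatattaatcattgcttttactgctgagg
The Col27a1 and Col5a3 windows are rich in G and C (59.6% and 62.8%) and hold 15 and 17 CpG pairs, and the Col3a1 window has 35.2% G and C and 0 CpG pairs. GGGCGG, on either strand, was present in 57.9% of the 38 windows of collagen genes and in 32.7% of all 32851 windows. CCAAT was present in 34.2% and 33.8%, TATAAA in 13.2% and 12.4%, and TTCNNNGAA in 5.26% and 7.02%. A match describes the letters and is no evidence of a bound factor.

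Library totals ran from 6826534 to 27832271 counts. The IVF female replicate 1 and natural female replicate 2 libraries had the smallest totals, called shallow below, and also stood apart in how gene level varied with GC content. The Spearman correlation of GC content with the log2 deviation from each gene's mean was -0.372 in both, against -0.0897 to 0.349 in the other 10. Hepatocyte markers were abundant in every library (a summed 78570 to 95770 CPM in the IVF males and 96200 to 111400 CPM in the other 9). CPM here are counts brought to a common library size by the trimmed mean of M-values. Counts assigned to collagen genes made up 0.0718% to 0.165% of each library. At these depths a gene with 0 counts in a library could still be present at up to 0.108 to 0.439 CPM (3 counts of the total, counting error only).

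Of the 44 collagen genes, 29 passed the filter on low counts (65.9%, against 53.8% of all symbols) and could be tested. They comprised 9 of 11 fibrillar genes, 5 of 6 collagen IV genes, 5 of 6 collagen VI genes, 4 of 9 fibril-associated genes, both multiplexins, 3 of 4 transmembrane genes and 1 of 3 short-chain genes. The other 15 had at most 68 counts over all 12 libraries, and at most 15 in any library. They include the cartilage collagens Col2a1, Col9a1, Col9a2, Col9a3, Col10a1 and Col11a1 and the skin anchoring-fibril collagen Col7a1. Col9a1 and Col19a1 had 0 counts in every library.

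Levels of different genes were compared as CPM per kilobase of merged exons. The merged length can exceed that of the transcripts present, so the order of genes depends on it. Col18a1, the multiplexin that carries endostatin, stood far above the rest at a mean of 133.8 CPM per kb (73.96 to 196.2 over the 12 libraries), 82.5% of the summed collagen level per kilobase. It was above the next gene in 12 of 12 libraries. Col14a1, a fibril-associated collagen, had a mean of 5.43 CPM per kb (3.75 to 8.32). The basement membrane chains Col4a1 and Col4a2 had means of 4.01 and 3.54 CPM per kb, then came Col3a1 at 2.35 and Col27a1 at 2.12. Neighbours in this order were often not separated: Col14a1 was above Col4a1 in 7 of 12 libraries, Col4a1 above Col4a2 in 10, and Col3a1 above Col27a1 in 9. Col1a1 and Col1a2, the chains of type I collagen, had means of only 0.736 and 0.716 CPM per kb.

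**Figure D1:**
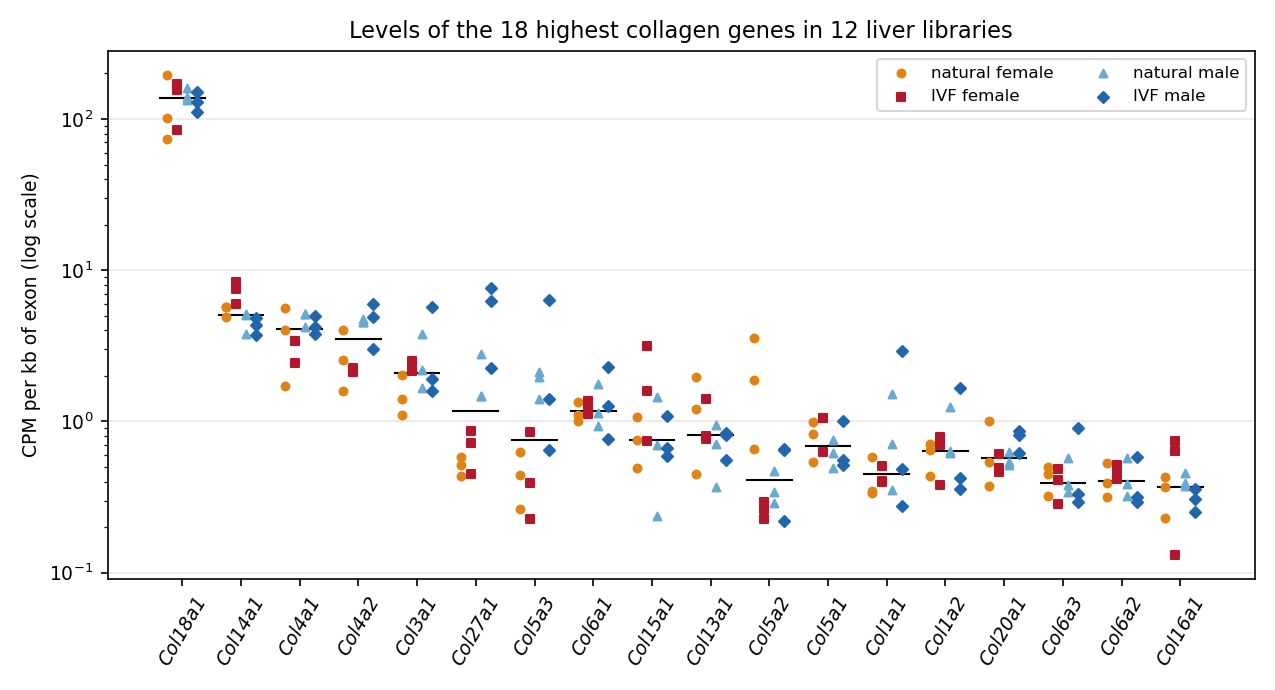
Level of the 18 collagen genes with the highest mean, in CPM per kilobase of exon on a log axis, with 1 point per library, coloured by group, and a horizontal bar at the median over the 12 libraries. Col18a1 lies between 73.96 and 196.2 in every library, above all other collagen genes, and Col27a1 spreads from 0.437 to 7.64.

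Col18a1 (chromosome 10, 77052178 to 77166548, minus strand, GRCm38) varied within groups more than between them. Its levels were 594, 1089 and 1198 CPM in the IVF females and 903, 1056 and 775 CPM in the IVF males. In the natural females they were 1377, 519 and 714 CPM, and in the natural males 943, 983 and 1120 CPM. The natural female group alone spanned the lowest and the highest library of all 12. The lowest values, 519 CPM in natural female replicate 2 and 594 CPM in IVF female replicate 1, came from the shallow libraries. The fitted difference on the log2 scale was 0.07 between males and females (95% interval -0.47 to 0.62) and -0.01 between IVF and natural livers (-0.55 to 0.54), averaged over the other factor.

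Male and female livers differed in a small number of collagen genes. Averaged over both modes of conception, Col27a1, Col5a3 and Col4a2 were higher in males and Col14a1 was lower, by edgeR's quasi-likelihood test at a Benjamini-Hochberg adjusted p under 0.05. That is 4 of 29 collagen genes (13.8%), where 7.2% of all 13204 tested genes passed. In males 3 were higher (3.57% of all genes were) and 1 was lower (3.63% were). The median log2 difference of the 29 was 0.171, beside -0.0105 over all tested genes.

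Col27a1 encodes a fibrillar collagen best known from cartilage (chromosome 4, 63214004 to 63334991, plus strand). It was at 36.5, 19.3 and 19.3 CPM in the natural males and at 29.5, 81.5 and 99.5 CPM in the IVF males. In the natural females it was at 5.70, 7.55 and 6.72 CPM, and in the IVF females at 11.3, 9.39 and 5.86 CPM. All 6 male libraries lay above all 6 female libraries. Col27a1 was the only collagen gene with such a separation in either direction (1 of 29, or 3.45%, where 5.75% of all genes separated). It was 5.51-fold higher in males (log2 difference 2.46 ± 0.31 SE, 95% interval 1.79 to 3.14, adjusted p = 0.000543). None of its exon bases is shared with another annotated gene.

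Col5a3 encodes a chain of type V collagen, which sits inside type I fibrils (chromosome 9, 20770050 to 20815067, minus strand). Its levels were 13.4, 9.59 and 14.5 CPM in the natural males and 9.61, 43.5 and 4.40 CPM in the IVF males. The natural females had 4.25, 3.00 and 1.80 CPM and the IVF females 2.67, 1.54 and 5.81 CPM. The sexes did not overlap among naturally conceived mice, while in the IVF groups the lowest male lay below the highest female. Col5a3 was 4.82-fold higher in males (log2 difference 2.27 ± 0.53 SE, 95% interval 1.12 to 3.42, adjusted p = 0.0259). Without the IVF male replicate 2 library, which held the highest value, the log2 difference was 1.54 (adjusted p = 0.0376). The adjusted p was 0.0635 without both shallow libraries, 0.05 with limma voom, and 0.0507 to 0.0629 without IVF female replicate 1 or 2, natural female replicate 3 or natural male replicate 3.

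Of the 5 tested collagen IV genes, only Col4a2 passed the test between the sexes averaged over conception. Col4a2, which pairs with Col4a1 in the common basement membrane network (chromosome 8, 11312805 to 11449287, plus strand), was at 31.3, 30.01 and 30.04 CPM in the natural males and at 32.3, 39.5 and 19.8 CPM in the IVF males. It was at 16.9, 10.55 and 26.8 CPM in the natural females and at 15.0, 14.7 and 14.1 CPM in the IVF females. Males lay above females within each mode of conception, with an overlap across them. Col4a2 was 1.87-fold higher in males (log2 difference 0.91 ± 0.22 SE, 95% interval 0.43 to 1.39, adjusted p = 0.0307), with an adjusted p of 0.0875 when libraries were scaled by their totals alone. The adjusted p was also above the threshold without any single library (0.0581 to 0.0689) other than IVF male replicate 3 and natural female replicates 2 and 3. Col4a1, its neighbour (chromosome 8, 11198423 to 11312826, minus strand), was at 31.6, 38.2 and 38.6 CPM in the natural males and 37.3, 31.4 and 28.3 CPM in the IVF males. It was at 29.9, 12.8 and 41.9 CPM in the natural females and 18.3, 25.6 and 25.6 CPM in the IVF females, so that the natural groups overlapped and the IVF groups did not. The 2 genes start head to head and share 22 exon bases. The use of strand in counting is not given in the sources used here, so reads in those bases cannot be assigned to 1 of them.

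Col14a1 encodes a fibril-associated collagen that binds the surface of type I fibrils (chromosome 15, 55307750 to 55520803, plus strand). It was at 58.3, 42.2 and 53.1 CPM in the IVF females and at 40.2, 40.03 and 34.6 CPM in the natural females. It was at 30.3, 26.3 and 33.9 CPM in the IVF males and at 35.9, 26.7 and 35.3 CPM in the natural males. The IVF females were the highest group, the natural females lay above the IVF males, and 2 natural males lay above the lowest natural female. Col14a1 was 1.41-fold lower in males (log2 difference -0.50 ± 0.13 SE, 95% interval -0.78 to -0.21, adjusted p = 0.0438). All 20 alternative analyses gave a lower value in males, and 8 kept the call. It was lost without any single library (adjusted p 0.0581 to 0.0984) other than IVF female replicate 2 and natural female replicate 3.

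**Figure D2:**
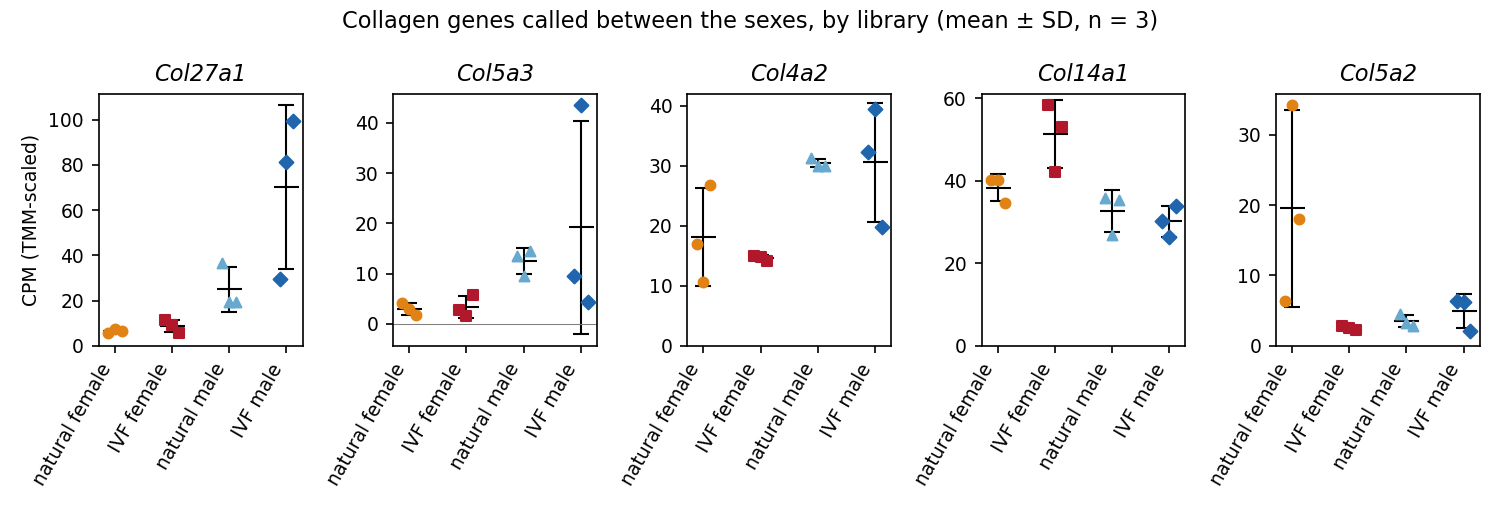
Expression of the 5 collagen genes called in a comparison of the sexes, in CPM by group, with 1 point per library and the mean ± SD (n = 3 libraries per group). Col27a1 is the panel in which every male library lies above every female library, and Col5a2 is highest in the natural females, which reach 34.3 CPM.

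Most collagen genes did not pass the test between the sexes. Col1a1 had 2.33, 4.64 and 9.92 CPM in the natural males, 19.1, 1.82 and 3.203 CPM in the IVF males, and 2.21 to 3.82 CPM in the 6 female libraries, with a log2 difference of 1.24 ± 0.54 SE (adjusted p = 0.19). Its spread lay in the males, and the highest value came from 1 IVF male library. No collagen VI, multiplexin, transmembrane or short-chain gene passed the test. All 3 tested transmembrane genes (Col13a1, Col17a1 and Col25a1) had lower fitted values in males, with log2 differences from -0.93 to -0.64.

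Within naturally conceived mice, 2 of 29 collagen genes differed between the sexes (6.9%, where 1.77% of all genes passed). Col27a1 was 3.78-fold higher in males (log2 difference 1.92 ± 0.43 SE, adjusted p = 0.0487). Col5a2, another chain of type V collagen (chromosome 1, 45374321 to 45503282, minus strand), was 5.48-fold lower in males (log2 difference -2.45 ± 0.55 SE, adjusted p = 0.0487). Col5a2 was at 4.52, 3.30 and 2.77 CPM in the natural males and at 6.34, 34.3 and 18.02 CPM in the natural females. The groups did not overlap, and the 3 females were far apart from one another. Both calls lay close to the threshold. The highest Col5a2 value came from natural female replicate 2, 1 of the shallow libraries, and without it Col5a2 missed the threshold (-1.78, adjusted p = 0.139). Col5a2 also missed it without any other library (adjusted p 0.0524 to 0.204) except IVF male replicate 3 and natural female replicate 1. With only the 6 libraries of the comparison Col5a2 was not called (adjusted p = 0.113) and Col5a3 was (2.03, adjusted p = 0.043). Col27a1 missed the threshold without any single library (log2 difference 1.54 to 2.07, adjusted p 0.0501 to 0.149) except IVF male replicate 1. Col5a3, with a log2 difference of 2.04 ± 0.74 SE, had the third smallest p of the collagen genes at 1 CPM or more (adjusted p = 0.22). In all, 4 of 29 collagen genes (13.8%, against 20% of all genes) did not overlap between natural males and females: Col27a1, Col4a2 and Col5a3 were higher in males and Col5a2 was lower.

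Within IVF mice only Col27a1 passed (1 of 29, or 3.45%, where 2.19% of all genes passed). It was 8.03-fold higher in males (log2 difference 3.01 ± 0.44 SE, adjusted p = 0.00382), and the call held in all 21 alternative analyses with a log2 difference of 2.67 to 3.37. Among collagen genes at 1 CPM or more, Col14a1 was next, at -0.76 ± 0.19 SE (adjusted p = 0.0659), followed by Col4a2 at 1.07 ± 0.31 SE (adjusted p = 0.118). Below 1 CPM on average, and chosen here after their values were seen, Col4a5 (-1.53 ± 0.38 SE, adjusted p = 0.069) and Col17a1 (-1.73 ± 0.49 SE, adjusted p = 0.109) lay between these in their p. The libraries of IVF males and females did not overlap for 9 of 29 collagen genes (31%, against 21.8% of all genes). Col27a1, Col4a1, Col4a2 and Col20a1 were higher in every male, and Col14a1, Col17a1, Col4a5, Col24a1 and Col25a1 were lower. Col24a1 and Col25a1 rested on few counts. Col24a1 had 4, 9 and 8 counts in the IVF males and 5, 13 and 17 in the IVF females. Col25a1 had 2, 1 and 7 counts in the IVF males and 6, 10 and 10 in the IVF females.

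**Figure D3:**
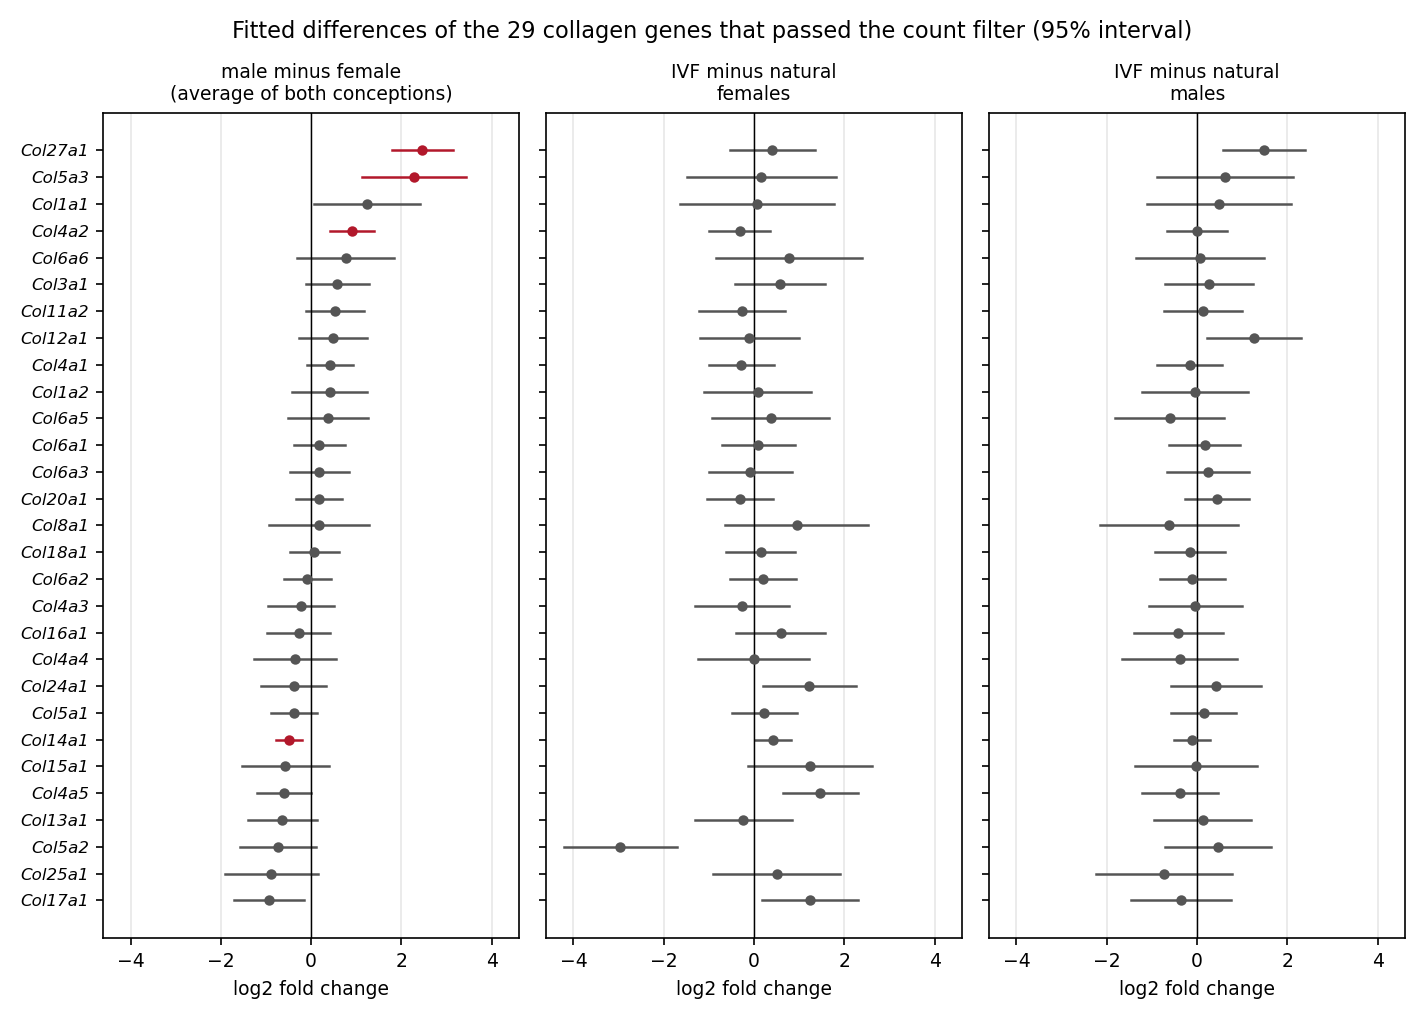
Fitted log2 differences of the 29 tested collagen genes between males and females (left) and between IVF and natural livers in each sex (middle and right), with bars for the 95% interval and red for genes with an adjusted p under 0.05. The 4 red genes are all in the comparison of the sexes, and Col5a2 in females is the point farthest from 0 in the comparisons of IVF (-2.96).

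IVF and naturally conceived females differed in no collagen gene at an adjusted p under 0.05 (0 of 29, and 0% of all 13204 genes by edgeR). At an unadjusted p under 0.05, 5 collagen genes differed (17.2%, against 3.7% of all genes). In IVF females 4 of them were higher (1.7% of all genes were) and 1 was lower (1.99% were). The fitted value was above 0 for 19 of 29 collagen genes (65.5%, against 47.8% of all genes), with a median of 0.159. Limma voom called 0 collagen genes, and DESeq2 called 1 (Col5a2, adjusted p = 0.000707) among 4 genes in all.

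Col5a2 was at 2.82, 2.54 and 2.18 CPM in the IVF females, from 19, 61 and 51 counts. The natural females, with 6.34, 34.3 and 18.02 CPM, had 158, 286 and 311 counts, and no IVF female reached the lowest of them. The fitted value was 7.78-fold lower in IVF females (log2 difference -2.96 ± 0.58 SE, 95% interval -4.22 to -1.70, adjusted p = 1), the second smallest p of all genes tested. Without natural female replicate 2, the shallow library that held the highest value, the log2 difference was -2.29. All 21 alternatives gave a lower value in IVF females. This comparison and that of the sexes in natural mice share the 3 natural female libraries. In the males Col5a2 was at 6.32, 6.25 and 2.10 CPM after IVF and at 2.77 to 4.52 CPM after natural conception, and all 6 males lay below the lowest natural female, 2 of them by a small margin. None of its exon bases is shared with another annotated gene. Col3a1, which ends 24614 bases from the end of Col5a2 with 0 protein-coding genes between, was at 21.5, 21.1 and 24.5 CPM in the IVF females and at 13.9, 10.9 and 19.99 CPM in the natural females, higher after IVF with no overlap.

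Col14a1, with the values given above, had a log2 difference of 0.42 ± 0.19 SE in IVF against natural females (95% interval 0.01 to 0.82, adjusted p = 1), and the 3 IVF libraries lay above the 3 natural ones. Col15a1, the multiplexin related to Col18a1, was at 20.2, 10.1 and 4.70 CPM in the IVF females and at 4.81, 6.83 and 3.13 CPM in the natural females. The groups overlapped, and the highest value came from 1 of the shallow libraries (log2 difference 1.23 ± 0.63 SE, 95% interval -0.14 to 2.60, adjusted p = 1). Among collagen genes below 1 CPM on average, chosen here after their values were seen, Col4a5, an X-linked basement membrane chain, was at 1.78, 1.62 and 0.983 CPM in IVF females and at 0.602, 0.360 and 0.521 CPM in natural females (log2 difference 1.47 ± 0.38 SE, adjusted p = 1). In all, 6 of 29 collagen genes did not overlap between these groups (20.7%, against 7.42% of all genes): Col3a1, Col4a5, Col14a1, Col17a1 and Col24a1 were higher after IVF, and Col5a2 was lower. Col24a1 rested on few counts, with 5, 13 and 17 in the IVF females and 8, 3 and 3 in the natural females.

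IVF and naturally conceived males also differed in no collagen gene at an adjusted p under 0.05 (0 of 29 by edgeR, by DESeq2 and by limma voom, where 0.00757% of all genes, 1 gene, passed in edgeR). At an unadjusted p under 0.05, 2 of 29 differed (6.9%, against 2.69% of all genes), Col27a1 and Col12a1, with the higher level after IVF. The median log2 difference was 0.0049, beside 0.00975 over all genes.

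Col27a1, with the values per library given above, averaged 70.2 CPM in the IVF males (SD 36.4) and 25.0 CPM in the naturally conceived ones (SD 9.90, 3 libraries each). In 2 of 3 IVF males it was above every natural male, and in the other it lay between them. The fitted value was 2.81-fold higher in IVF males (log2 difference 1.49 ± 0.42 SE, 95% interval 0.58 to 2.39, adjusted p = 1). Col12a1, a fibril-associated collagen of tendon and dense tissue, was at 2.81, 2.51 and 7.66 CPM in IVF males and at 1.87, 2.15 and 1.38 CPM in natural males. The groups did not overlap (log2 difference 1.27 ± 0.48 SE, 95% interval 0.23 to 2.31, adjusted p = 1), and without IVF male replicate 3 the log2 difference was 0.56. In the females Col12a1 was at 1.04, 2.74 and 1.75 CPM after IVF and at 1.28, 2.28 and 2.72 CPM after natural conception. Col20a1, another gene of the fibril-associated family, was at 4.46, 3.198 and 4.204 CPM in IVF males and at 2.79, 2.65 and 3.24 CPM in natural males. Its groups overlapped, with a log2 difference of 0.45 ± 0.32 SE (95% interval -0.26 to 1.15, adjusted p = 1). It was at 2.52, 2.37 and 3.12 CPM in IVF females and at 2.77, 1.92 and 5.16 CPM in natural females. Only 2 of 29 collagen genes did not overlap between IVF and natural males (6.9%, against 8.91% of all genes), Col12a1 being higher and Col16a1 lower after IVF.

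The difference between the 2 IVF effects was tested as an interaction, and no collagen gene passed (0 of 29, and 0% of all genes by edgeR). DESeq2 called 1 collagen gene and limma voom called 0, and 3 of 29 had an unadjusted p under 0.05 (10.3%, against 3.87% of all genes). Col5a2 had the smallest p: its IVF effect was higher in males than in females by 3.43 ± 0.78 SE on the log2 scale (95% interval 1.72 to 5.14, adjusted p = 1). Col14a1 (-0.53 ± 0.26 SE, 95% interval -1.11 to 0.04) and Col12a1 (1.37 ± 0.69 SE, 95% interval -0.13 to 2.88) followed among genes at 1 CPM or more, both with an adjusted p of 1. For Col27a1 the interaction was 1.09 ± 0.59 SE (95% interval -0.21 to 2.38, adjusted p = 1). Averaged over the sexes, no collagen gene differed between IVF and natural livers (0 of 29 by edgeR, DESeq2 and limma voom, where 0.00757% of all genes passed in edgeR). At an unadjusted p under 0.05 there were 3 of 29 (10.3%, against 2.69% of all genes): Col5a2, Col27a1 and the low-level fibrillar gene Col24a1. Among genes at 1 CPM or more the smallest p-values were those of Col5a2 (-1.25 ± 0.39 SE, 95% interval -2.09 to -0.40), Col27a1 (0.94 ± 0.30 SE, 95% interval 0.29 to 1.59) and Col12a1 (0.58 ± 0.34 SE, 95% interval -0.17 to 1.33), all with an adjusted p of 1.

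The make-up of fibrillar collagen RNA was compared on the scale of CPM per kb, summed over the 11 genes. The sums were 5.34, 7.23 and 6.97 in the natural females, 5.37, 5.76 and 6.60 in the IVF females, 8.73, 7.55 and 11.4 in the natural males and 15.8, 16.3 and 12.3 in the IVF males. Every male library was above every female library, and every IVF male was above every natural male. These sums include Col27a1 and Col5a3, both called higher in males, so their separation of the sexes is not independent of those calls. Scaled by library totals alone, the natural males (6.45 to 10.3) overlapped the natural females (5.68 to 8.45), and the IVF males (11.3 to 16.4) stayed above all other libraries. The 3 IVF males were also the 3 libraries with the lowest hepatocyte marker sums. In these sums natural males (98780 to 104100 CPM) overlapped natural females (96200 to 105600 CPM). Alb, the albumin gene of that list, was at 44670 to 55350 CPM in IVF males and 56730 to 60850 CPM in natural males. It was at 69560 to 81520 CPM in females. The other markers did not all follow Alb. In natural males against natural females, 7 of 8 hepatocyte markers had fitted values above 0 and 1 was below. The part of the hepatocyte markers in the collagen levels was not tested. The chains behind the sums differed between libraries of 1 group. Col27a1 and Col5a3 together made up 23.3%, 77.7% and 67.4% of the fibrillar level in the IVF males, and 54.7%, 38.3% and 31.9% in the natural males. In females they made up 11.2% to 23.4%. Col27a1 and Col5a3 were at 6.26 and 6.39 CPM per kb in IVF male replicate 2, and at 7.64 and 0.647 CPM per kb in replicate 3. The classical scar collagens Col1a1, Col1a2 and Col3a1 made up 65.1%, 13.7% and 22.8% in the same IVF males, so that replicate 1 reached a high sum through another set of chains than replicates 2 and 3. Summed alone, Col1a1, Col1a2 and Col3a1 did not separate the groups. Their sums were 10.3, 2.23 and 2.81 in the IVF males and 2.66, 3.50 and 6.52 in the natural males. In the IVF females they were 2.98, 3.25 and 3.80, and in the natural females 2.46, 1.89 and 3.26.

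**Figure D4:**
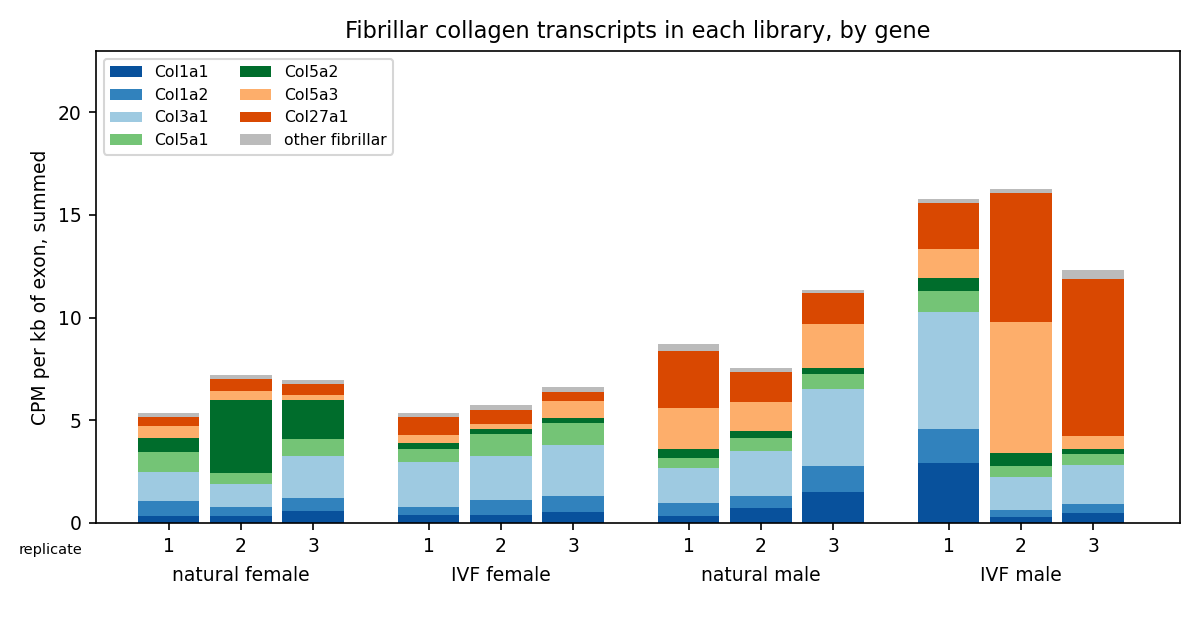
Fibrillar collagen level per library in CPM per kb of exon, stacked by gene, 1 bar per library. The 3 IVF male bars are the tallest (12.3 to 16.3). That of replicate 1 is mostly Col3a1, Col1a1 and Col1a2, that of replicate 2 mostly Col27a1 and Col5a3, and that of replicate 3 mostly Col27a1.

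The IVF male replicate 1 library held the highest Col1a1 (19.1 CPM), Col1a2 (20.6 CPM), Col3a1 (56.0 CPM) and Col6a3 (10.9 CPM) of all 12. Its summed red cell markers were also the highest (174.4 CPM, against 6.61 to 56.5 in the other 11), with Hbb-bs, Hbb-bt and Hba-a2 of that list at 0 in every library. The part of red cells or of this single library in those collagen values was not tested. The remaining IVF males had 1.82 and 3.203 CPM of Col1a1, 4.43 and 5.25 CPM of Col1a2 and 15.7 and 18.6 CPM of Col3a1. The values of 1.82 and 4.43 CPM lie below every female library, and the other 4 lie within the female range. The natural males had 16.4, 21.4 and 37.0 CPM of Col3a1, the last of which was the next highest of all libraries.

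Chains that are built into the same molecule were compared within libraries. On the per-kilobase scale the ratio of Col1a1 to Col1a2 had a median of 0.853 (0.476 to 1.75), that of Col4a1 to Col4a2 a median of 1.14 (0.705 to 1.61) and that of Col6a1 to Col6a2 a median of 2.94 (1.90 to 4.30). The size of these ratios depends on the merged exon lengths, which need not be those of the transcripts present. The lengths were 6563 bases for Col1a1 and 12426 for Col1a2, and 4380 for Col6a1 and 8326 for Col6a2. The ratio of Col5a1 to Col5a2 varied most, from 0.150 to 4.67. It was 2.14, 4.00 and 4.67 in the IVF females and 1.501, 0.150 and 0.440 in the natural females, without overlap.

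Of 8 pairs of collagen genes examined over the 12 libraries, 3 had a correlation of log2 CPM with an adjusted p under 0.05. Col1a1 and Col3a1 varied together most closely (Pearson r = 0.92, permutation p = 0.00018, adjusted p = 0.00144; Spearman rho = 0.853, permutation p = 0.00075, adjusted p = 0.006). Without the 2 libraries farthest from the median of Col1a1, r was 0.638, and within groups it was 0.974 (exact permutation p = 0.00231, adjusted p = 0.0185). For Col4a1 and Col4a2, r was 0.815 (permutation p = 0.00049, adjusted p = 0.00196; rho = 0.741, permutation p = 0.00755, adjusted p = 0.0302), 0.721 without the 2 farthest libraries and 0.762 within groups (exact permutation adjusted p = 0.21). For Col1a1 and Col1a2, r was 0.845 (permutation p = 0.00099, adjusted p = 0.00264) but rho was 0.552 (permutation p = 0.0663, adjusted p = 0.149) and r was 0.385 without IVF male replicate 1 and natural male replicate 3, so that on this scaling the relation over all 12 libraries rests on those. Within groups r was 0.87 (exact permutation p = 0.0208, adjusted p = 0.0833). With library totals alone rho was 0.713 (permutation adjusted p = 0.0306), r without the same libraries was 0.505 and the within-group r was 0.881 (exact permutation adjusted p = 0.0309). The 2 chains of type V collagen, Col5a1 and Col5a2, showed no correlation that passed (r = -0.185, permutation adjusted p = 0.566), nor did the neighbours Col3a1 and Col5a2 (r = -0.391, permutation adjusted p = 0.274). The other 3 pairs had r = 0.623 for Col6a1 and Col6a2, 0.489 for Col1a1 and Col4a1, and -0.322 for Col15a1 and Col18a1, with permutation adjusted p of 0.052, 0.162 and 0.351.

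**Figure D5:**
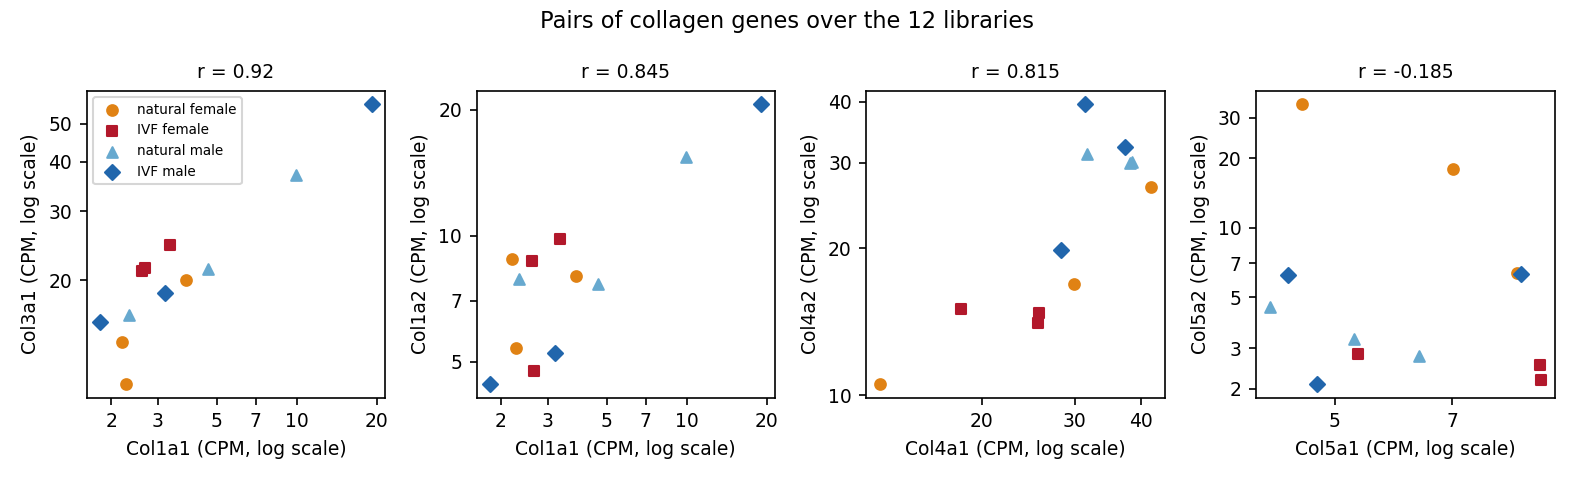
CPM of 4 pairs of collagen genes on log axes, 1 point per library coloured by group, with Pearson's r of log2 CPM over the 12 libraries. Col1a1 with Col3a1 (r = 0.92) and Col4a1 with Col4a2 (r = 0.815) lie near a line, and the IVF male replicate 1 library is the point farthest up in both panels of Col1a1.

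Genes that make, process, bind or degrade collagen were read beside the collagens, against the 7.2% of all genes that passed between the sexes. Between the sexes, averaged over conception, 1 of 20 tested genes of collagen modification and folding rose in males and none fell: Ppib, the cyclophilin B that speeds the folding of procollagen, had means of 136 ± 28.8 and 115 ± 15.3 CPM in natural and IVF males and 73.5 ± 15.1 and 84.6 ± 19.4 CPM in the corresponding females (SD, n = 3; adjusted p = 0.0334). Of 10 genes of procollagen cleavage and cross-linking none passed (smallest p 0.141 for Loxl4, adjusted p = 0.361). Of 25 other matrix genes 1 fell, Dcn, which encodes the collagen-binding proteoglycan decorin: it was at 92.1 ± 1.37 and 103 ± 16.4 CPM in IVF and natural males and at 150 ± 39.1 and 136 ± 21.4 CPM in females (SD, n = 3; adjusted p = 0.0455). Of 11 genes of collagen breakdown none passed (smallest for the membrane protease gene Mmp15, adjusted p = 0.0596). Among 8 collagen receptor genes Itga10, an integrin chain, rose (adjusted p = 0.0357) and Mrc1, a receptor that takes up collagen fragments, fell (adjusted p = 0.0497). Among 21 genes of TGF-beta and PDGF signalling Pdgfra, a receptor of mesenchymal cells, fell (adjusted p = 0.0318). In the comparisons of IVF with natural livers, within females and within males, no gene of these 6 lists passed, all with an adjusted p of 1.

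Most tested markers of stellate cells, portal fibroblasts, endothelium, macrophages and lymphocytes had lower fitted values in males, the reverse of Col27a1, Col5a3 and Col4a2. Over all 13204 genes 6740 were below 0 and 7.2% passed. All 11 hepatic stellate cell markers had fitted values below 0 (median -0.54), 2 of them passing the test (Lrat and Ecm1), and their summed level was 273 to 319 CPM in IVF males, 314 to 396 in natural males, 373 to 465 in natural females and 442 to 533 in IVF females. All 6 tested portal fibroblast markers were below 0 too, Thy1 (adjusted p = 0.0157) and Gas6 (adjusted p = 0.0468) passing. Their sum was 24.5 to 48.8 CPM in IVF males, 27.2 to 40.1 in natural males, 44.1 to 51.0 in natural females and 44.8 to 92.6 in IVF females. Col14a1 had its highest and lowest libraries in the same groups as the stellate sum, but not all in the same libraries. Both were lowest in IVF male replicate 2 (26.3 and 273 CPM). The stellate sum was highest in IVF female replicate 2 (533 CPM), which had the lowest Col14a1 of the IVF females (42.2 CPM). Col14a1 was highest in IVF female replicate 1 (58.3 CPM, with a stellate sum of 458 CPM). Kupffer cell and macrophage markers were 8 of 8 below 0, with sums of 144 to 230 CPM in IVF males, 269 to 305 in natural males and 298 to 448 in the females, and 3 of them passed (Clec4f, Vsig4 and Timd4). All 6 tested B, T and natural killer cell markers were below 0, with Cd3g (adjusted p = 0.0235) and Nkg7 (adjusted p = 0.0365) passing and sums of 0.836 to 3.50 CPM in males and 2.82 to 4.99 CPM in females. Of 10 sinusoidal endothelial markers 9 were below 0 and none passed. Their sums were 312 to 361 CPM in IVF males and 384 to 472 CPM in IVF females, without overlap, and 352 to 419 and 371 to 419 CPM in natural males and females. Of 4 tested myofibroblast and smooth muscle markers 3 were below 0 and none passed. Tagln, a contractile-cell gene among them, had the smallest p, with a log2 difference of 0.62 (adjusted p = 0.0682), and the sums were 5.56 to 12.9 CPM over all libraries. The adipocyte markers Lep and Retn were at 0 in every library, and Cidec, a lipid droplet gene that steatotic hepatocytes also express, was higher in males (adjusted p = 0.0279). The part of these cell types in the collagen differences was not tested.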

How the data were processed

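The analysis started from 1 table of whole-number counts per gene symbol, with 1 column for each of the 12 libraries and 0 columns left unused. The authors deposited these counts as raw counts; per the submitters' processing notes the tools were Trimmomatic 0.32, STAR 2.3.0e and featureCounts 1.5.0 with build mm10. Aligner settings, the annotation used for counting, strandedness and the handling of multi-mapping reads are not given in the sources used here. Reads shared between similar genes could therefore be counted or dropped.

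Genes were filtered with filterByExpr (13204 of 24527 kept) and scaled by the trimmed mean of M-values (TMM). A single edgeR quasi-likelihood model with 4 group means over all 12 libraries gave 7 contrasts, and p-values were adjusted by Benjamini-Hochberg over all tested genes. SE is the absolute log2 difference divided by the root of F. CPM are TMM-scaled, and log2 CPM for correlations used a prior count of 2. Intervals are 95%.

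Gene positions, exon lengths and GC content came from GENCODE M21 (GRCm38): 23805 symbols matched by name, 342 by synonym and 380 did not, and all 44 collagen genes matched. Promoters came from RefSeq (GRCm38.p6). Those of Col12a1, Col14a1, Col1a1, Col22a1, Col26a1, Col2a1, Col4a3, Col5a2 and Col9a3 are not shown.

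Fold changes are given for collagen genes that passed in a comparison and for the 3 of smallest p in each among the 22 at a mean of 1 CPM or more. Values per library are given for these and for the 6 highest per kilobase. Genes of other lists are named where they passed or, if none did, by the smallest p. The collagen genes and all lists were chosen with earlier results of these data known. The models were tested on simulated data. Alternatives were DESeq2 size factors, library totals alone, 2 other filters, DESeq2, limma voom, a GC content offset, only the 6 libraries compared, omission of both shallow libraries and omission of each library. Versions were R 4.3.3, edgeR 4.0.16, limma 3.58.1, DESeq2 1.42.0, Python 3.11.15, numpy 2.4.6, scipy 1.17.1 and pandas 2.3.3.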

Additional observations from a re-analysis of the deposited data

How the results depend on the processing

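Over all alternatives, collagen genes named with a test kept their direction and side of the threshold in 387 cases, lost the call in 58, gained it in 7 and reversed in 0. The 387 include genes that were not called and stayed so. For males against females in natural mice, Col27a1 lost its call in 17 of 21 alternatives and Col5a2 in 13 of 21. In IVF mice Col27a1 lost it in 0 of 21. In the average of the sexes the losses were 6 of 20 for Col5a3, 10 of 20 for Col4a2, 12 of 20 for Col14a1 and 0 of 20 for Col27a1. The causes were not tested. The count of collagen genes called moved from 0 to 1 with DESeq2 in IVF against natural females and in the interaction. For males against females in natural mice it moved from 2 to 1 with DESeq2 size factors, library totals alone, a mean of at least 1 CPM or a GC offset, to 0 with limma voom or without both shallow libraries, and to 0 to 1 with each library left out. In IVF mice it moved from 1 to 3 with library totals alone, 6 with DESeq2, 2 without both shallow libraries and 1 to 2 with each library left out. The average of the sexes moved from 4 to 2 without both shallow libraries and to 1 to 3 with each library left out. With limma voom 3 of these 4 remained, Col5a3 being lost. With only the 6 libraries compared in natural mice the count stayed at 2 but Col5a3 replaced Col5a2. For the average of the sexes, each of Col5a3, Col4a2 and Col14a1 lost its call in some omissions of a single library, and Col27a1 lost it in none. In natural mice, of these omissions only that of IVF male replicate 1 kept the call of Col27a1.

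Median log2 differences of the collagen genes stayed within 0.217 of the main analysis in 134 cases and moved further in 10. This limit is the pooled SD between libraries of 1 group. Some medians moved further. With library totals alone the medians moved to 0.109 in the interaction (from -0.127), -0.174 for sex in natural mice (from 0.146) and -0.05 for sex averaged (from 0.171). This scaling also moved the median of all genes to 0.232, -0.336 and -0.221 for these, to -0.102 for sex in IVF mice and to 0.143 for IVF in males. A mean of at least 1 CPM gave 0.105 in the interaction and 0.373 for sex in IVF mice (from -0.0751), where no filter gave 0.288. Leaving out each library gave -0.434 to 0.0732 in the interaction, -0.28 to 0.168 for sex in IVF mice and -0.157 to 0.225 for sex averaged.

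The correlation of Col5a1 with Col5a2 reversed to 0.0551 with library totals alone and 0.0212 without both shallow libraries, and that of Col15a1 with Col18a1 to 0.164 without them. That of Col6a1 with Col6a2 reached 0.709 and 0.832 in these settings (permutation adjusted p = 0.0154 and 0.00648).

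Counts over all genes for sex in natural mice were 234, against 510 with library totals alone (88 higher, 422 lower), 678 with DESeq2, 139 with only the 6 libraries and 111 to 265 with each library left out. In IVF mice they were 289, against 721 with DESeq2, 313 with library totals alone (92 higher, 221 lower) and 136 to 352 with each library left out. For the average of the sexes they were 951, against 1625 with library totals alone (252 higher, 1373 lower), 1693 with DESeq2 and 519 to 800 with each library left out. DESeq2 called 4 genes for IVF in females, 5 in males (edgeR 1, limma voom 0), 9 in the interaction and 4 for IVF averaged (edgeR 1, limma voom 0, GC offset 0). No paired analysis was possible because the labels give no replicate numbers, the numbers used here follow the order of the samples, and the number in the titles that is shared between groups joins only 1 pair (IVF female replicate 1 and IVF male replicate 2).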
